A study of Mus musculus with 3 samples.

Results

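Keratin 23 (Krt23) was set beside Krt8, Krt18 and Krt19, the keratins of simple, single-layered epithelia, in embryonic mouse kidneys with and without Fgfrl1. The members were all probes of the microarray whose gene name in the deposited files is 1 of these 4 genes, older keratin names included. This gave 5 probes for 4 genes, of 27745 gene names and 41174 probes on the array. Krt8 had a pair of probes and each of the others had 1. The genes were selected on the contrast that the arrays measure, Fgfrl1-/- against wildtype, so that their values in this contrast are given as a description and without a test.

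Kidney rudiments of C57BL/6 Fgfrl1-/- and C57BL/6 wt embryos were compared at the embryonic stage E12.5 on 3 Agilent whole mouse genome arrays, each hybridized with cRNA of 1 Fgfrl1-/- pool and 1 wildtype pool. Each pool was made from 6 to 9 rudiments of littermates, and the Fgfrl1-/- embryos lacked the receptor in all cells, not in the kidney alone. Fgfrl1-/- cRNA always carried the dye Cy3 and wildtype cRNA the dye Cy5, with 0 dye-swapped arrays, so that an effect of the dye and an effect of the genotype cannot be told apart. The numbers 1, 2 and 3 name the arrays and carry no order.

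Keratins are the intermediate filament proteins of epithelial cells. They assemble as obligate pairs of an acidic type I and a basic type II protein, and Krt8, a type II keratin, pairs with the type I keratin Krt18 in the earliest embryonic epithelia and in most simple epithelia thereafter. Krt19 is a type I keratin of ducts and other simple epithelia, and Krt23 is a type I keratin with a less studied role. In the early metanephric kidney the ureteric bud is an epithelial duct from the start, whereas the precursors of the nephron turn from mesenchyme into epithelium around its tips. Fgfrl1 is a membrane protein related to the Fgf receptors that lacks their tyrosine kinase domain, and kidneys without it stay rudimentary.

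The probes are shown because every value of these genes rests on them. The first 30 of the 60 bases of each are printed 5′ to 3′ in lower case, as the files give them, and no base is marked.
Krt23: tccgcgctaatgggtgagtctcgacggaaa
Krt8: tggtgtccgagtcttctgatgtcgtgtcca
Krt8, the second probe: ccgaggatcagccctaatcctctggccaac
Krt18: ggatggcagagtggtgtccgagactaatga
Krt19: acggaggcccgttatggagtccagctgtca

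On the mouse build mm8, which the files use, the whole Krt23 probe (A_51_P287198) matches chr11:99294169-99294228 on the minus strand. The Krt19 probe (A_51_P356642) lies on the same chromosome at chr11:99957168-99957227, minus strand, 663 kb away. The probes of Krt8 are at chr15:101824949-101825008 (A_51_P242399) and chr15:101824817-101824876 (A_51_P242400), both minus strand and 72 bases apart. The Krt18 probe (A_51_P324814) is at chr15:101859944-101860003 on the plus strand, 34.9 kb from the nearer Krt8 probe. Krt18 is thus the type I keratin that sits among the type II genes, next to its partner. No annotation of mm8 was used, so the exons that hold the probes are not given here. The RefSeq accession that the files list for each of the 5 probes belongs to the gene of that name in the annotation of GRCm38.p6. In the 10 pairs among these probes the longest run of bases in common was 5 to 11, the most between Krt18 and the first Krt8 probe, and it was 6 between Krt23 and each of the other 4. The probe of Krt23 contained 45% G and C, and those of the simple keratins 51.7 to 55%.

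Krt23 was far lower in Fgfrl1-/- kidneys on every array. In the wildtype channel the median spot signal of its probe, in scanner units before any correction, was 1032.5, 3746 and 2974 for arrays 1 to 3. In the Fgfrl1-/- channel it was 191.5, 202 and 296. The local background next to these spots was 53, 50 and 54.5 in the wildtype channel and 17, 28.5 and 21.5 in the Fgfrl1-/- channel, so the spots stayed well above background in both channels on all 3 arrays. The lowest wildtype signal was thus above the highest Fgfrl1-/- signal.

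After correction for background and dye, the log2 ratio of Fgfrl1-/- over wildtype for Krt23 was −2.46, −2.90 and −2.68, with a mean of −2.68 ± 0.217 (SD, n = 3). This is a 6.41-fold lower level in Fgfrl1-/- kidneys. Among the probes with a value on each array, that of Krt23 had the 4th lowest ratio on array 1, the lowest on array 2 and the 4th lowest on array 3, and by its mean it was in rank 2 from the bottom of 41174 probes. RNA came from whole rudiments, so that fewer cells with Krt23 RNA and less of it per cell cannot be told apart.

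Krt8 and Krt18, the partners of one filament, had ratios above 0 on every array. The first Krt8 probe read 3009, 6471 and 5830 for wildtype against 3906, 4523 and 5320.5 for Fgfrl1-/-. Its log2 ratio was 0.28, 0.80 and 0.47, with a mean of 0.52 ± 0.264 (SD, n = 3), or 1.43-fold higher. The second Krt8 probe read 1689, 6309 and 5087.5 for wildtype against 3726, 4330 and 5387.5 for Fgfrl1-/-. Its log2 ratio was 1.02, 0.78 and 0.68, with a mean of 0.83 ± 0.174 (SD, n = 3), or 1.77-fold. The probes of this gene had the same sign on each array and ranges that overlapped, although they differed on array 1. By their means the first Krt8 probe was in rank 467 from the top of 41174 probes and the second in rank 57.

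For Krt18 the wildtype signals were 6004.5, 21395 and 18207, and the Fgfrl1-/- signals 9753.5, 12046 and 15811. Its log2 ratio was 0.68, 0.58 and 0.48, with a mean of 0.58 ± 0.101 (SD, n = 3), or 1.49-fold. It varied the least between arrays among these probes, and its mean was in rank 305 from the top of 41174 probes. The ranges of Krt18 and of the first Krt8 probe overlapped, so that the order of the pair within the simple keratins was not larger than the spread between arrays.

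Krt19 had a small ratio that varied more than its own size. Its signals were 185, 209.5 and 225 for wildtype and 205, 216.5 and 187 for Fgfrl1-/-, and its probe was well above background in both channels on all 3 arrays. The log2 ratio was 0.040, 0.96 and 0.18, with a mean of 0.39 ± 0.494 (SD, n = 3), or 1.31-fold. Array 2 alone gave most of this mean, which was in rank 1096 from the top of 41174 probes.

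**Figure D1:**
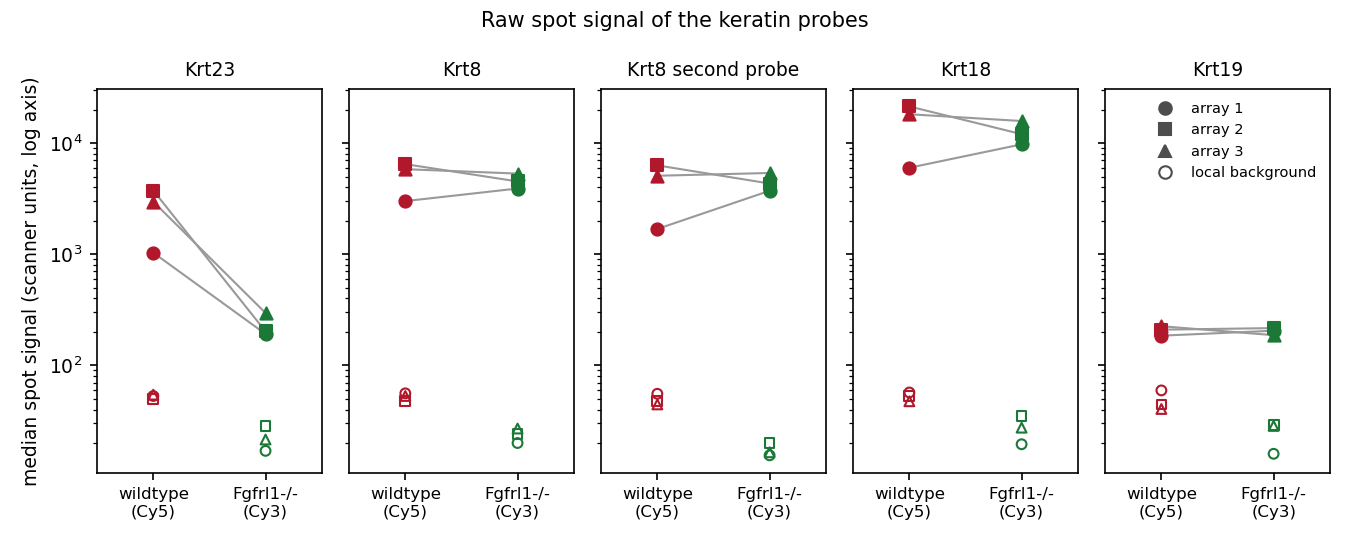
Median spot signal in scanner units on a log axis for each keratin probe, wildtype (Cy5, red) beside Fgfrl1-/- (Cy3, green), with a line joining the channels of 1 array (circle 1, square 2, triangle 3) and the local background as open symbols. Only for Krt23 do the channels separate on all 3 arrays, at 1032.5 to 3746 against 191.5 to 296, and no probe's height is to be set against that of another.

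**Figure D2:**
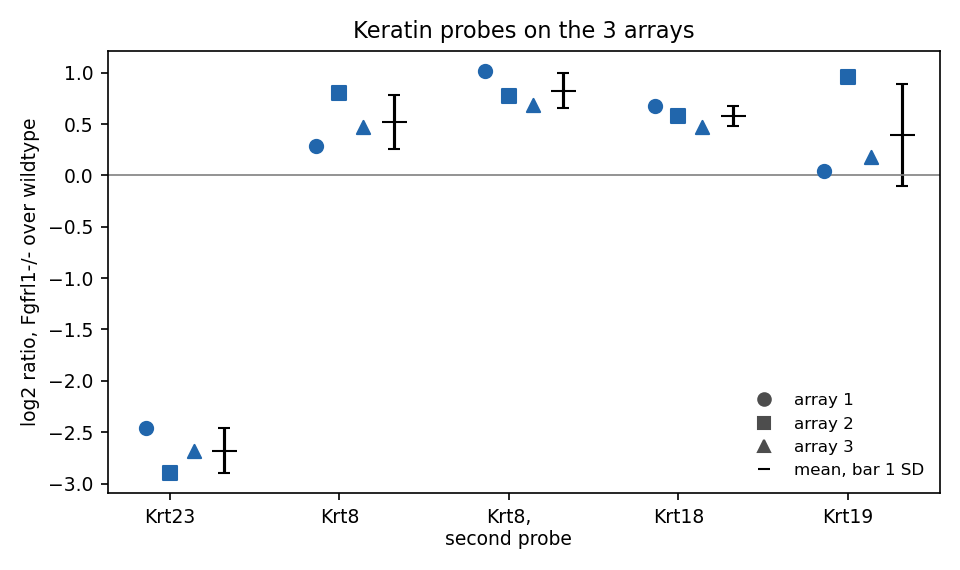
Log2 ratio of Fgfrl1-/- over wildtype for the 5 keratin probes on arrays 1 (circle), 2 (square) and 3 (triangle), with the mean and 1 SD as a bar. The points of Krt23 lie between −2.90 and −2.46, and all others lie above 0.

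The sign of Krt8 and Krt18 on array 2 depended on how the dyes were balanced, and that of Krt23 did not on any array. In the raw signals of array 2, wildtype exceeded Fgfrl1-/- for both probes of Krt8 and for Krt18, and on array 3 it did so for the first Krt8 probe and for Krt18. Loess centres the ratios of probes of like brightness on 0. With a single median per array in its place, the log2 ratio on array 2 was −0.34 for Krt18, −0.027 for the first Krt8 probe and −0.051 for the second, whereas on array 3 it stayed above 0, at 0.10 for Krt18 and 0.18 for the first Krt8 probe. The means over the 3 arrays were then 0.13 for Krt18, 0.15 and 0.47 for the probes of Krt8 and 0.32 for Krt19. For Krt19, quantile normalization between arrays gave −0.046 on array 1, and the authors' table of log2 ratios gave −0.10. Over the 7 ways of computing the ratio that were compared per array, all 21 values of Krt23 were below 0, from −3.55 to −2.28. Of the 21 values each, 20 were above 0 for Krt18 and for each Krt8 probe, and 19 for Krt19.

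**Figure D3:**
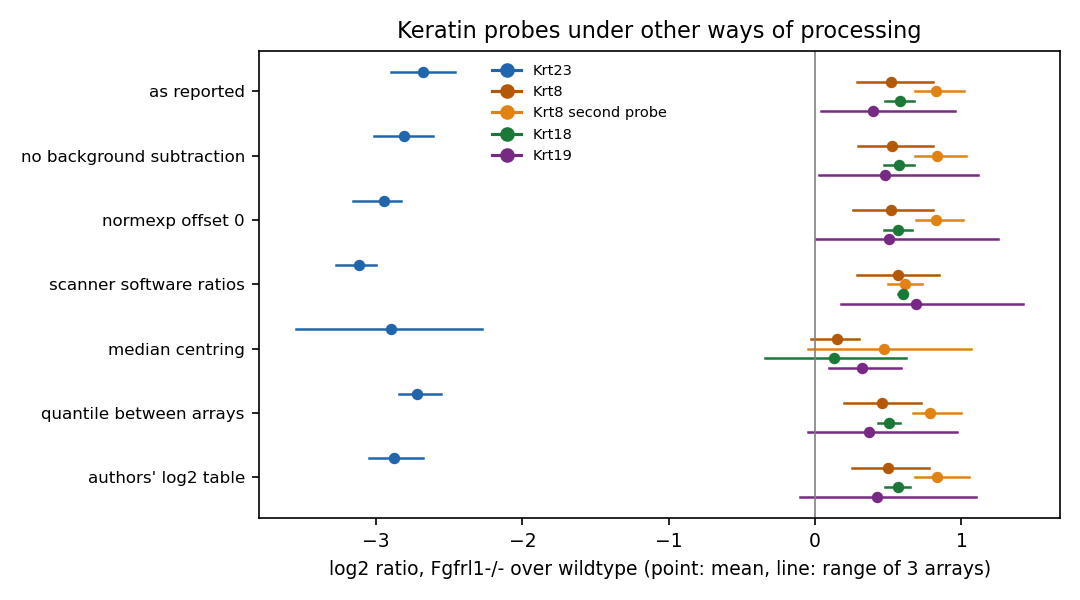
Log2 ratio of Fgfrl1-/- over wildtype for each keratin probe under 7 ways of processing, with the mean as a point and the range over the 3 arrays as a line. Krt23 stays between −3.55 and −2.28, whereas the lines of Krt8 and Krt18 reach below 0 under median centring and that of Krt19 under quantile normalization and in the authors' table.

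A difference between probes of the same array is free of any shift that all probes share. It is not free of a dye effect that differs with the probe or its brightness. Krt23 minus the mean of Krt8, Krt18 and Krt19 was −2.80, −3.68 and −3.06, with a mean of −3.18 ± 0.452 (SD, n = 3) on the log2 scale. The ratio of Krt23 was thus 9.05-fold below that of the simple keratins. Taken singly, the mean difference was −3.20 ± 0.479 from Krt8, −3.26 ± 0.189 from Krt18 and −3.07 ± 0.699 from Krt19. Such a difference shows unequal change and not that the simple keratins were at the same level in both genotypes.

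Across the array, limma's test with adjustment by Benjamini and Hochberg over all 41174 probes called 164 probes lower (0.398%) and 119 higher (0.289%) in Fgfrl1-/- kidneys at an adjusted p below 0.05. Of the 5 keratin probes, 1 was called lower, that of Krt23, and 1 higher, the second of Krt8. Since the genes were chosen on this contrast, nothing is read from these calls. The count of calls turned on single arrays: it was 7666 without array 1 and 0 without array 2 or without array 3, where 3712 and 3141 probes had an unadjusted p below 0.05. With all arrays 15.9% of probes had one. With median centring 91 probes were called lower and 2 higher. Arrays 2 and 3 shared a slide and correlated with r = 0.713 across probes, against 0.106 and 0.222 for array 1 with each of them. The fit without array 1 thus holds no spread between slides. The targeted gene Fgfrl1 had log2 ratios of −1.22, −1.51 and −1.83, with a mean of −1.52 ± 0.306 (SD, n = 3) and an adjusted p of 0.0332 by limma. In the Fgfrl1-/- channel 57.1 to 80.2% of probes were well above background, and in the wildtype channel 60.9 to 65%.

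The remaining keratins comprised 38 genes, each represented by its brightest probe, of which 16 were well above background in at least 1 channel on all 3 arrays. Of the 38 genes, 0 were called lower and 1 higher by limma, against 0.483% lower and 0.342% higher of all gene names represented in the same way. Their median log2 ratio was 0.019, beside 0.007 for all gene names. An unadjusted p below 0.05 was found for 5 of them, or 13.2%, against 16.6% of all gene names. The 21 genes of the type I cluster on chromosome 11, to which Krt23 belongs, had a median of 0.009 with 0 calls. The 17 genes of the type II cluster on chromosome 15 had a median of 0.035 with 1 call.

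The gene called higher was Krt7, a type II keratin of simple epithelia and ducts. Its log2 ratio was 0.78, 0.72 and 0.70, with a mean of 0.74 ± 0.0433 (SD, n = 3) and an adjusted p of 0.0356 by limma. Its values lay within the range of the first Krt8 probe and above those of Krt18. The call did not hold in 11 of 15 alternatives. Over the 15 the adjusted p by limma ran from 5.1e-05, without array 1, to 0.515, with median centring. A second Krt7 probe gave 0.53 with an adjusted p of 0.158 by limma.

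The lowest of these keratins was Krt10, a type I keratin of differentiating epidermis, with −0.71, −0.32 and −0.68 and a mean of −0.57 ± 0.216 (SD, n = 3). It did not pass the test of limma (adjusted p = 0.0849). Krt5, the type II keratin of basal cells, had the highest mean, 0.99 ± 0.756 (SD, n = 3), from values of 0.32, 1.81 and 0.84 that spread widely (adjusted p = 0.169 by limma). Without array 1 both were called by limma, Krt10 at an adjusted p of 0.00197 and Krt5 at 0.00013. In that fit 2 of the 38 keratins were called lower and 4 higher, against 10.1% lower and 8.97% higher of all gene names. The remaining arrays shared a slide, so these p-values hold no spread between slides. Krt20, Krt15, Krt16, Krt17 and Krt2, the other keratins with the brightest probes, had means of −0.025, 0.031, −0.041, 0.13 and −0.051. None of these passed the test. Krt23 lay 2.11 below Krt10, the next lowest keratin, on the log2 scale.

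**Figure D4:**
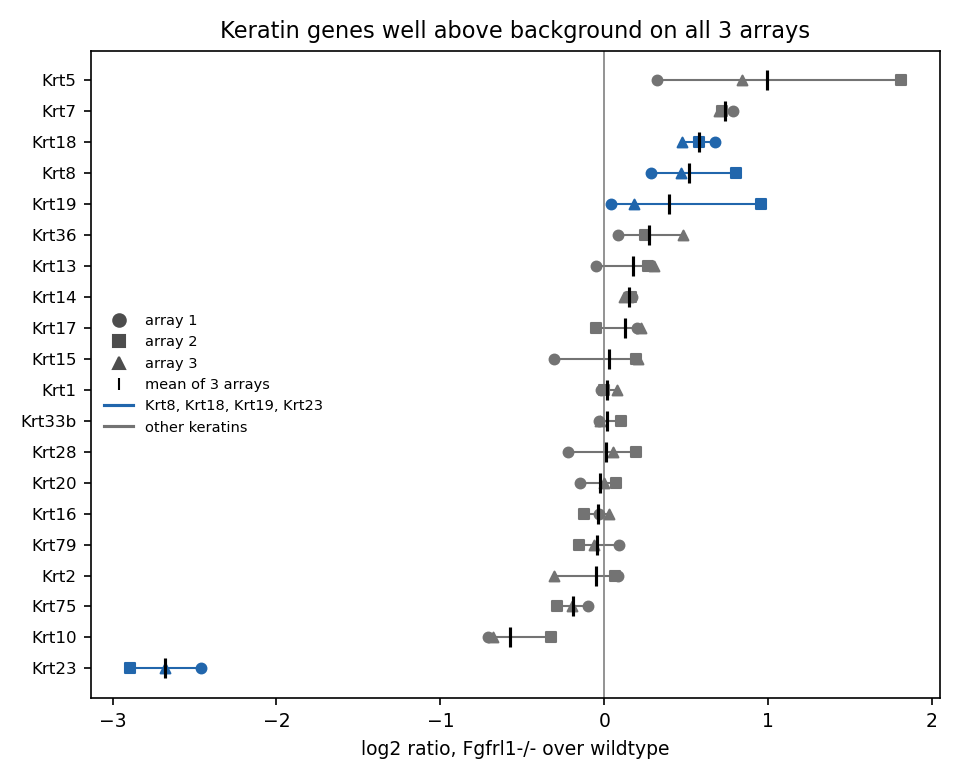
Log2 ratio of Fgfrl1-/- over wildtype on the 3 arrays (symbols) with the mean (tick) for the 4 genes (blue, the brightest probe of each) and for the 16 other keratins (grey) that were well above background in at least 1 channel on all 3 arrays, ordered by the mean. Krt23 stands below all others. The highest means are, in rising order, those of Krt19, Krt8, Krt18, Krt7 and Krt5, and most of the rest lie around 0.

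The genes beside Krt23 on the chromosome had ratios closer to 0. Within 200 kb of its probe, by the mm8 positions, lay 22 probes of 17 gene names, 7 of them well above background in at least 1 channel on all 3 arrays. Their mean log2 ratios ran from −0.57 to 0.18, and 0 were called by limma, where 0.398% of all probes were called lower and 0.289% higher. An unadjusted p below 0.05 was found for 2 of the 22, against 15.9% of all probes. They included the keratins Krt25, Krt26, Krt27, Krt28, Krt10 and Krt20 on one side and keratin-associated proteins of hair, such as Krtap3-1, on the other. Krt20, a keratin of intestinal and urothelial cells, was the nearest of them at 49.6 kb, with −0.15, 0.074 and 0.001. The brighter of the pair of Krt10 probes had the lowest mean, and the wildtype signal of the dimmer one was well above background on 0 arrays.

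The genes whose ratios lay closest to those of Krt23 were not keratins. Likeness was measured as the root mean square difference of the log2 ratios over the 3 arrays, among 16375 gene names whose wildtype signal was well above background on all 3 arrays. Slc32a1, the vesicular transporter of inhibitory amino acids, was nearest at 0.216, with ratios of −2.41, −2.53 and −2.69. It was followed by Svopl, a transporter-like protein, at 0.305, with −2.95, −2.73 and −2.79. Wnt4, the signal by which nephron precursors turn epithelial, was at 0.387, with −2.09, −2.35 and −2.77. The Wnt antagonist Dkk1 was at 0.489, with −2.36, −2.35 and −2.05, and the growth factor Fgf8 at 0.651, with −1.66, −2.23 and −2.26. These values are of the brightest probe. With the mean of a gene's probes, the mean log2 ratio was −1.885 for Dkk1 and −1.22 for Fgf8. These genes were found by their ratios on the same arrays, so that their likeness is a description only.

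The ratios of gene lists for structures of the early kidney were set beside those of these keratins, which does not locate a keratin in a structure. Nephron precursor genes were the list with ratios most like that of Krt23, with a median log2 ratio of −1.16 over 14 genes. By limma 8 were called lower and 0 higher, against 0.483% lower and 0.342% higher of all gene names. An unadjusted p below 0.05 was found for 13 (92.9%), against 16.6% of all gene names. Those called lower with the largest change, apart from Wnt4 (−2.40 ± 0.342), Dkk1 (−2.25 ± 0.179) and Fgf8 (−2.05 ± 0.340), were Lhx1, a transcription factor of the renal vesicle, at −1.72 ± 0.0822, and the Notch effectors Hes5 at −1.39 ± 0.189 and Hey1 at −1.23 ± 0.154 (SD, n = 3 each). This list holds genes that the study chose on these samples and is not independent evidence of a direction. Its count of calls was 0 without array 2 and without array 3. It was also 0 with a normexp offset of 0 and with scanner ratios, and 2 with a trend and robust variances. The part of these structures in the ratio of Krt23 was not tested.

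General epithelial genes, such as those of junctions and of epithelial splicing, mostly gave mean ratios of the sign seen for Krt8 and Krt18. Their median log2 ratio was 0.19 over 23 genes, all well above background on the arrays, with 21 means above 0 (91.3%) and 11 genes above 0 on all 3 arrays (47.8%). Over all gene names these shares were 52.3% and 20.1%. By limma 0 were called in either direction, and 8 (34.8%) had an unadjusted p below 0.05, against 16.6% of all gene names. Cldn7, a tight junction protein with the brightest probe of the list, had −0.078, 0.44 and 0.32. Without array 1, 16 of the 23 were called higher, against 8.97% of all gene names. The remaining arrays shared a slide, so that fit holds no spread between slides and nothing is read from this count. Median centring brought the median of the list to 0.056, beside 0.038 for all gene names, which had 0.007 with loess. It turned the mean of Cldn7 to −0.085.

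Ureteric bud genes did not move as 1 group. Of 20 genes, 3 were called lower and 1 higher, against 0.483% lower and 0.342% higher of all gene names. Their median was −0.026, and 11 (55%) had an unadjusted p below 0.05, against 16.6% of all gene names. The genes lower in Fgfrl1-/- kidneys were Etv4, a transcription factor downstream of Ret, at −1.05 ± 0.270, the transporter Slco4c1 at −1.03 ± 0.225, and Wnt11, a signal of the bud tip, at −0.76 ± 0.130. Cdh16, a cadherin of the duct epithelium, was higher at 1.11 ± 0.308 (SD, n = 3 each). Etv4 is among the genes that the study chose on these samples, so its call is not independent evidence of a direction. All 4 calls were lost without array 2 and without array 3. They were also lost with a normexp offset of 0, scanner ratios, dim probes left out, trend and robust variances, and the authors' table. The call of Cdh16 did not hold in 10 of 15 alternatives, and median centring brought its mean to 0.74. With the mean of a gene's probes Slco4c1 was at −0.70 and its call did not hold. The median of the general epithelial genes was above 0, as were the means of Krt8 and Krt18. Of the 20 ureteric bud genes, however, 10 had means above 0. On all 3 arrays 6 of the 20 were above 0 and 9 were below 0. The part of these genes in the ratios of the keratins was not tested.

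The 12 desmosomal and plakin genes, whose products anchor keratin filaments, had a median of 0.025. By limma 0 of them were called, at array-wide shares of 0.483% lower and 0.342% higher, and 4 had an unadjusted p below 0.05 (33.3%, against 16.6% of all gene names). These 4 did not share a sign. Dsp at −0.72 ± 0.241 and Pkp2 at −0.45 ± 0.112 were below 0 on all 3 arrays, with adjusted p of 0.0661 and 0.0823 by limma. Pkp3 at 0.36 ± 0.322 and Tchp at 0.20 ± 0.0518 were above 0 (SD, n = 3 each). Pkp4, a plakophilin-related protein of cell junctions with the brightest probe of this list, had a mean of 0.010 ± 0.244 (SD, n = 3). Of 12 other intermediate filament genes 0 were called by limma and 3 (25%) had an unadjusted p below 0.05, with a median of 0.006, and Vim, the filament protein of mesenchyme, had 0.33 ± 0.0925 (SD, n = 3) with an adjusted p of 0.119 by limma. Median centring turned Vim to −0.19, and with the mean of a gene's probes Vim was at 0.095. Besides Vim, the genes with an unadjusted p below 0.05 were Synm at −0.52 ± 0.0477 and Nefl at 0.34 ± 0.192 (SD, n = 3 each). Their adjusted p by limma was 0.0542 and 0.173.

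Markers of other epithelia that a dissection could include were few, so that 0 calls is what the array-wide shares of 0.483% and 0.342% would give. Of 13 squamous and urothelial genes 0 were called by limma and 0 had an unadjusted p below 0.05, with a median of −0.041, and only 5 were well above background in at least 1 channel on all 3 arrays, whereas 4 were so on no array. Sfn, the member with the brightest probe, had −0.041 ± 0.0710 (SD, n = 3). Of 7 mesothelial genes 0 were called by limma and 1 had an unadjusted p below 0.05 (14.3%, against 16.6% of all gene names). Their median was 0.18, but it was −0.042 without array 2 and 0.64 with scanner ratios. Wt1, which nephron progenitors also express, had −0.11 ± 0.0969 (SD, n = 3).

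**Figure D5:**
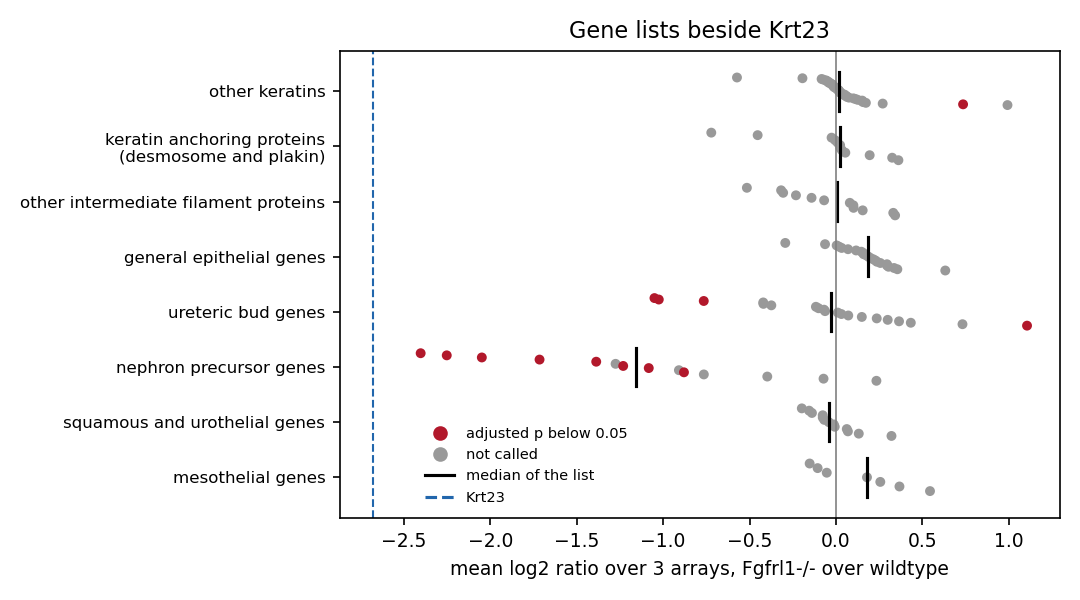
Mean log2 ratio over the 3 arrays of each gene of 8 lists, with called genes (limma, adjusted p below 0.05) in red, the median of each list as a black line and Krt23 as a dashed line. The median of the nephron precursor genes is −1.16, and the medians of the other lists lie between −0.041 and 0.19.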

How the data were processed

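For each array the authors deposited spot intensities that they had extracted from the scan with Agilent Feature Extraction, 9.5.3.1 (array 1) or 10.5.1.1 (arrays 2 and 3). Each row holds the median intensity of a spot and of the background around it in both channels, as deposited before normalization. The authors' software also subtracted the background, normalized the dyes and so made the deposited log10 ratios of wildtype over Fgfrl1-/-. The authors further deposited log2 ratios made with R and Bioconductor, whose steps are not given in the sources used here, and their direction was found by comparison with the scanner values.

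From 45018 spots, 1639 control spots were set aside. Median intensities were corrected with normexp at an offset of 50 and by loess within each array in limma 3.58.1 under R 4.3.3. Outlier spots were left out after normalization and spots of a probe were averaged. Ratios of 41174 probes were tested 2-sided against 0 with lmFit and eBayes and adjusted by Benjamini and Hochberg. Genes other than the 4 keratins were represented by the brightest probe of a gene name. "Well above background" is the software's own flag. Figures were drawn with matplotlib 3.10.9.

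The keratins, the gene lists and the rule for named genes were chosen with earlier results of these data known. Named were, by that rule, all probes of the 4 keratins, the called and the 8 brightest other keratins that were well above background, up to 6 called genes of a list or else its brightest, genes within 200 kb of Krt23 and the 5 genes nearest to it in ratio. Fgfrl1, Dsp, Pkp2, Pkp3, Tchp, Synm, Nefl and the second probes of Krt7 and Krt10 are also given. The methods give 3 separate RNA preparations per genotype, and precision is limited by there being 3 arrays. The fit was tested on simulated data with independent arrays, without a shared slide or a dye effect, so the test does not cover these. Alternatives changed the background correction, normalization, dim and outlier spots, probes of a gene, variance model, pairing of channels, source of values, slide and arrays, and 1 more, adjusting after 1 probe per gene name was kept, was chosen after the data were seen.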

Additional observations from a re-analysis of the deposited data

How the results depend on the processing

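The mean log2 ratio of Krt23 stayed between −3.11 and −2.57 over 16 alternatives. It moved by more than the spread between arrays with a normexp offset of 0 (−2.95) and with the scanner software's ratios (−3.11). Krt23 minus the simple keratins moved so only with the scanner ratios (−3.73). The count of calls did not have this stability. Against 283 probes, 0 were called with an offset of 0 and with scanner ratios, 93 with median centring, 82 with quantile normalization between arrays, 75 without dim probes, 6 with a trend and robust variances and 36 in the authors' log2 table. Leaving out 1 array gave 0 to 7666. The 1 keratin called higher became 0 with an offset of 0, scanner ratios, median centring, quantile normalization, dim probes left out, the mean of a gene's probes, trend and robust variances, separate channels and the authors' table, and 0 to 4 with 1 array left out. Keratins called lower were 0 to 2 with 1 array left out. The cause was not tested. A random block for the slide could not be fitted, so each slide was given 1 value without a test. The ratio within an array pairs its pools in every fit but that of separate channels, which called 295 probes. Adjusting over 1 probe per gene name called 272. With 3 arrays on 2 slides and 1 dye orientation, precision is limited by the number of arrays, and dye effects cannot be separated. 5 keratins at an unadjusted p below 0.05 became 3 to 8.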
